A study of Mus musculus with 10 samples.

Results

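Amino acid transporters of the SLC1, SLC3, SLC6, SLC7, SLC36, SLC38 and SLC43 families were described in the livers of mice lacking the nuclear orphan receptor TAK1, also called TR4 and encoded by Nr2c2. The members were all genes on the array whose symbol in the scanner files begins with Slc1a, Slc3a, Slc6a, Slc7a, Slc36a, Slc38a or Slc43a followed by a number, apart from Slc38a4, which the selection left out. This gave 55 genes with 94 probes, of 27671 genes named on the array. One of them, Slc7a6os, matches by its symbol alone, since it is named for its place opposite Slc7a6 and does not encode a transporter. Expression was measured in liver total RNA on Agilent mouse arrays in a single colour, the dye Cy3, so that each array holds 1 sample. The labels give 5 arrays of TAK1 knockout (KO) livers and 5 arrays of wild-type (WT) livers, all from mice aged 1 year and of the strain C57BL/6. Sex, diet and the extent of the deletion are not given in them, and they leave unsaid whether the samples of a group came from different mice, so a p-value here speaks for the spread of these samples, which may be technical. Arrays are named by group and replicate number, KO1 to KO5 and WT1 to WT5.

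Amino acids do not cross membranes freely, and each of these families carries a share of them. SLC1 transporters take up glutamate or small neutral amino acids together with sodium. SLC7 light chains exchange large neutral or cationic amino acids, most of them bound to an SLC3 heavy chain that brings them to the cell surface, whereas the cationic amino acid transporters within SLC7 act without one. SLC6 members use sodium and chloride to take up neutral amino acids and related compounds such as glycine, taurine, creatine and betaine. SLC38 members carry glutamine and other small neutral amino acids, SLC36 is known as the proton-coupled family, and SLC43 holds transporters of branched-chain amino acids. In liver these proteins supply the urea cycle, glutamine metabolism and protein synthesis, and several transporter genes are known targets of ATF4, the transcription factor of the amino acid response.

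The promoters that hold the core of the amino acid response element are shown first. The asparagine synthetase gene Asns, which had the largest difference in the neighbouring pathway, is shown beside the members. Whether the element has a part in any difference was not tested. The letters TGATGNAA were searched on both strands in RefSeq promoters of build GRCm38.p6, 250 bases before to 50 bases after each annotated start. They were found in 1304 of 32851 promoters, or 3.97%. Of the members, 37 genes had 56 promoters in the table, and 4 of these promoters (7.14%), belonging to 3 genes, held the letters. All 4 genes below lie on the minus strand, sequences run 5′ to 3′ along the gene, and capitals mark the motif on either strand.
Asns, chr6:7693199-7693258: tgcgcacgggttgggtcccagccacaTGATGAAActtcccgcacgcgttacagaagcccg
Slc7a11, chr3:50443646-50443705: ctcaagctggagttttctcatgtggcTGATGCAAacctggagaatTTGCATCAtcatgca
Slc1a4, chr11:20332684-20332743: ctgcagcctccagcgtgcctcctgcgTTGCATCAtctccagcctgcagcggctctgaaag
Slc7a7, first site, chr14:54418052-54418111: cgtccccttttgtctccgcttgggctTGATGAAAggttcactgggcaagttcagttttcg
Slc7a7, second site, chr14:54417912-54417971: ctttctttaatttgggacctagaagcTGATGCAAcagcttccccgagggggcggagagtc
The Slc7a11 promoter holds the motif once on each strand, and Slc7a7 has it at 2 places on the strand of the gene. The second of these places lies in both Slc7a7 promoters that hold the letters, which overlap. It is thus counted for each of them among the 4 promoters. A match is a description of these letters and was not tested as a binding site. Of the 3 member genes, Slc7a11 was not detected well enough to be tested, and neither Slc1a4 nor Slc7a7 passed the test below. The promoters of Slc7a2, Slc1a5 and Slc7a5 were not searched.

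Levels are given as log2 of the processed intensity minus the 75th percentile of the same array, so that 0 is the brightness of that percentile. A level belongs to its probe, and levels of different genes were not compared, except to choose the brightest member of each family for showing in full. A probe counts as detected on an array where the scanner software called it well above background, and a gene was tested if a probe was detected on at least 4 of 5 arrays of a group. The 75th percentile lay between 950.3 and 1344 intensity units over the 10 arrays, and between 51.0% and 62.4% of non-control probes were detected on an array. Probe coordinates are those of the files, in mouse build mm7, and were not placed in exons, introns or untranslated regions here. As a check of the labels, the cDNA probe AK039370, which lies on chromosome 6 between the probes named Nr2c2, was detected on 0 of 5 KO arrays and on 5 of 5 WT arrays (limma adjusted p = 0.00021). The pair of probes named Nr2c2 was detected on all 10 arrays, with log2 differences of 0.44 ± 0.11 (limma adjusted p = 0.043, higher in KO) and 0.36 ± 0.13 (adjusted p = 0.144), each KO minus WT with its standard error (n = 5 each). KO1, KO2 and KO3 shared slide 2 with WT5, KO4 was on slide 4, KO5 on slide 3 and the other 4 WT arrays on slide 1. Slide 2 alone held both groups, and differences within it rest on 1 WT array.

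Of the 55 genes, 30 were tested and 25 were not, and the test used all 10 arrays for 15810 genes. Among those tested, 24 were detected on all 10 arrays. By family, tests were possible for 4 of 7 SLC1 genes, 2 of 2 SLC3 genes, 8 of 19 SLC6 genes, 8 of 16 SLC7 genes, 2 of 4 SLC36 genes, 3 of 4 SLC38 genes and 3 of 3 SLC43 genes. SLC6 and SLC7 thus held most of the genes below the detection limit.

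**Figure D1:**
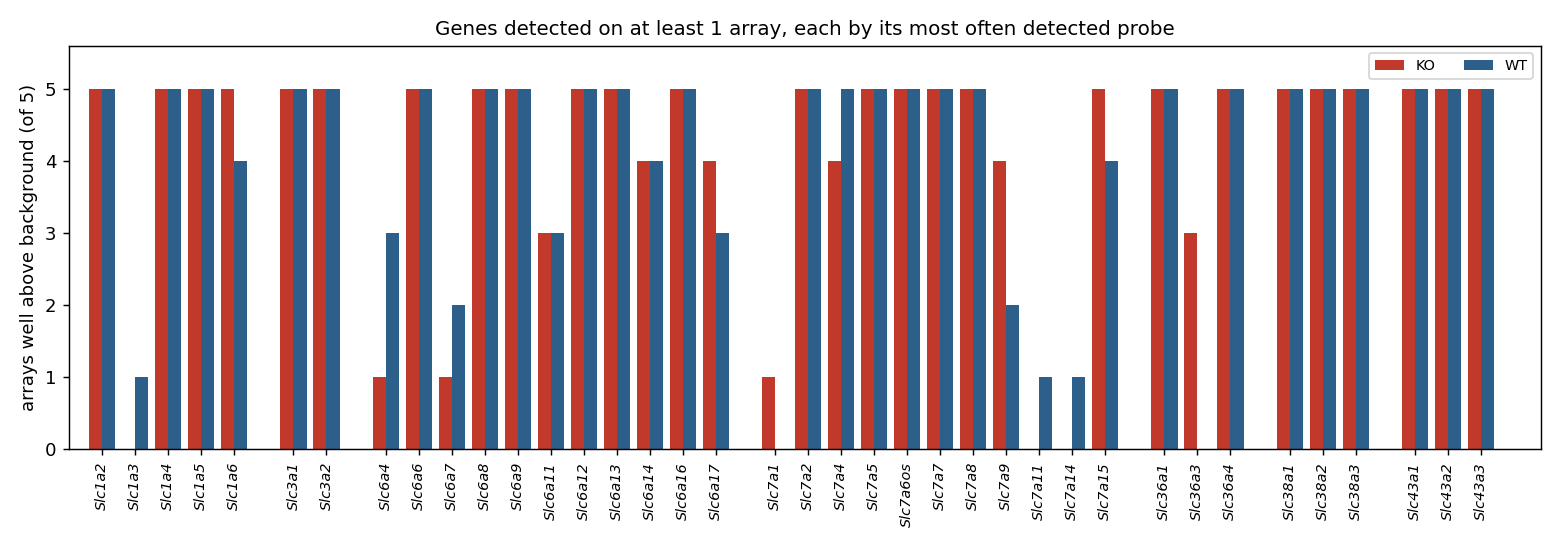
Number of arrays, of 5 in each group, on which each gene detected at least once was well above background by its best detected probe, with KO left of WT and genes ordered by family. Of the 55 genes, 24 reached all 10 arrays, and the 17 that reached none are not drawn.

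The untested genes include many transporters known from brain, kidney or gut. Among those detected on 0 of 10 arrays were the glutamate transporter gene Slc1a1, Slc1a7, Slc6a5, which encodes a glycine transporter of neurons, Slc6a2 and Slc6a3, which encode the noradrenaline and dopamine transporters, and Slc6a15, Slc6a18, Slc6a19 and Slc6a20 (named Slc6a20b in RefSeq). The same held for Slc7a3, Slc7a6, Slc7a10, Slc7a12 and Slc7a13 in SLC7, for Slc36a2 and for Slc38a5. Slc1a3 was detected on 0 KO arrays and 1 WT array, and Slc7a11, which encodes the cystine-glutamate exchanger xCT, and Slc7a14 did so as well. Slc7a1, which encodes the cationic amino acid transporter CAT1, was detected on 1 KO array and 0 WT arrays. Slc6a4, the serotonin transporter gene, was detected on 1 KO array and 3 WT arrays, the proline transporter gene Slc6a7 on 1 KO array and 2 WT arrays by 1 probe and on 2 KO arrays and 1 WT array by the other, and the GABA transporter gene Slc6a11 on 3 KO arrays and 3 WT arrays. Too few arrays detected these genes for the groups to be compared.

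Slc36a3, a member of the proton-coupled family, was the untested gene with the most uneven detection. Its best detected probe, on chromosome 11 at 55108129 to 55108188, was above background on 3 of 5 KO arrays, against 0 of 5 WT arrays. Its levels were -4.63, -6.12, -5.17, -3.13 and -2.38 in KO1 to KO5, against -5.78, -6.27, -6.35, -5.70 and -6.75 in WT1 to WT5. KO4 and KO5 stood above the rest, and KO2 lay among the WT arrays. Of its other pair of probes, one was detected on no array and the other on 1 WT array only, so the gene was singled out after its values were seen and no fold is given.

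A gene is said to have changed where limma's adjusted p (Benjamini-Hochberg over all genes tested) was under 0.05. By that rule 2 of the 30 tested members changed, which is 6.67%, against 5.91% of all genes tested. Slc1a5 was the 1 member that was higher (3.33%, against 2.44% of all genes), and Slc7a2 was the 1 that was lower (3.33%, against 3.48% of all genes). These shares are close to those of the array as a whole. An unadjusted p under 0.05 was reached by 10 members (33.3%, against 23.7% of all genes). Among them is Slc6a17, which was tested only because of its detection in KO, where it was higher, so its p is not read as a difference. The KO and WT arrays did not overlap for 5 members (16.7%, against 9.61% of all genes), of which Slc1a5, Slc7a5, Slc7a6os and Slc43a3 lay higher in KO and Slc7a2 lay lower.

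More of the 30 tested members had a positive than a negative difference. Their median log2 difference was 0.17, against 0.01 over all genes, and 20 of them were positive and 10 negative (66.7% positive, against 51.9% of all genes). Scaling moves all genes together: 23 of 30 were positive with no scaling between arrays, where the median of all genes was 0.12, and 17 of 30 with scaling to the median, where it was -0.09. With slide as a fixed block 16 of 30 were positive, and the median was 0.03 for members and -0.02 for all genes. Members passed the filter through the group in which they were detected, so these figures describe the tested genes and not the 55. Slc7a9 and Slc6a17, both positive, passed it through KO alone. Of the 24 members detected on all 10 arrays, 15 were positive, with a median of 0.085, against 0.003 for all genes so detected. With normexp background correction and quantile normalization 17 of 30 were positive, with a median of 0.086, against 0.011 for all genes. By family the median difference was 0.36 in SLC1, 0.21 in SLC3, -0.02 in SLC6, 0.36 in SLC7, -0.04 in SLC36, 0.19 in SLC38 and 0.01 in SLC43. The median size of a difference was 0.27 for members and 0.16 for all genes, and the median standard error was 0.17 for members and 0.12 for all genes. The SD between KO arrays exceeded that between WT arrays for 23 of the 30 members (76.7%, against 78.5% of all genes).

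**Figure D2:**
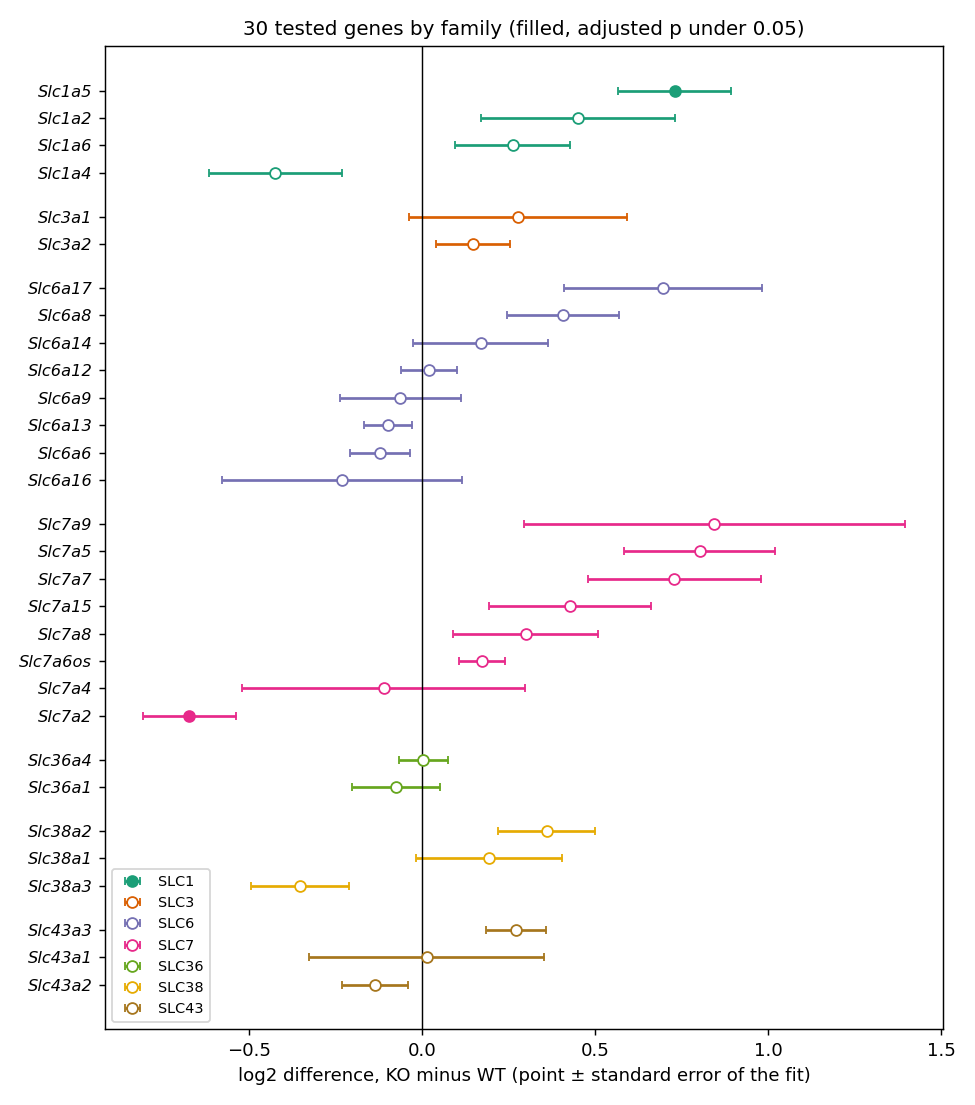
Log2 difference, KO minus WT, of each tested member on the horizontal axis, grouped by family, with the standard error of the limma fit as bars. Slc1a5 at 0.73 and Slc7a2 at -0.67 are the members that passed the adjusted threshold. Members with larger differences have wider bars, among them Slc7a9, which was tested only because of its detection in KO.

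Slc7a2 encodes the cationic amino acid transporter CAT2, whose liver form carries arginine, lysine and ornithine. Its probe lies on chromosome 8 at 39701203 to 39701262. Slc7a2 had levels of 0.70, 0.26, 0.78, 0.19 and 0.45 in KO1 to KO5, against 0.98, 1.24, 1.34, 1.21 and 0.96 in WT1 to WT5. All 5 KO arrays lay below all 5 WT arrays. The mean was 0.47 ± 0.26 in KO and 1.15 ± 0.17 in WT (SD, n = 5 each), and the log2 difference was -0.67 ± 0.13 (standard error), which is 1.59-fold lower in KO with a limma adjusted p of 0.022 and an exact two-sided permutation p of 0.0079, the smallest that 5 against 5 arrays can give. Within slide 2 the difference was -0.38, and with slide as a fixed block the adjusted p was 0.656. Leaving out WT2, WT3 or WT4 in turn gave limma adjusted p-values of 0.066, 0.053 and 0.054, and leaving out KO5 also ended the call.

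Slc1a5 encodes ASCT2, a sodium-dependent exchanger of glutamine, alanine, serine and cysteine. Its probe lies on chromosome 7 at 14562181 to 14562240. Slc1a5 stood at -1.58, -0.94, -1.26, -1.22 and -0.89 in KO1 to KO5, against -1.64, -1.79, -1.71, -2.22 and -2.18 in WT1 to WT5. No KO array lay at or below a WT array, although KO1 and WT1 differed little. The mean was -1.18 ± 0.28 in KO and -1.91 ± 0.27 in WT (SD, n = 5 each), and the log2 difference of 0.73 ± 0.16 is 1.66-fold higher in KO, with a limma adjusted p of 0.031 and an exact permutation p of 0.0079. Within slide 2 the difference was 0.92, with an adjusted p of 0.361 when slide was a fixed block. The call held without KO1 or without WT1, and it was lost when any 1 of the other 8 arrays was left out, with limma adjusted p-values up to 0.074, reached without WT4.

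**Figure D3:**
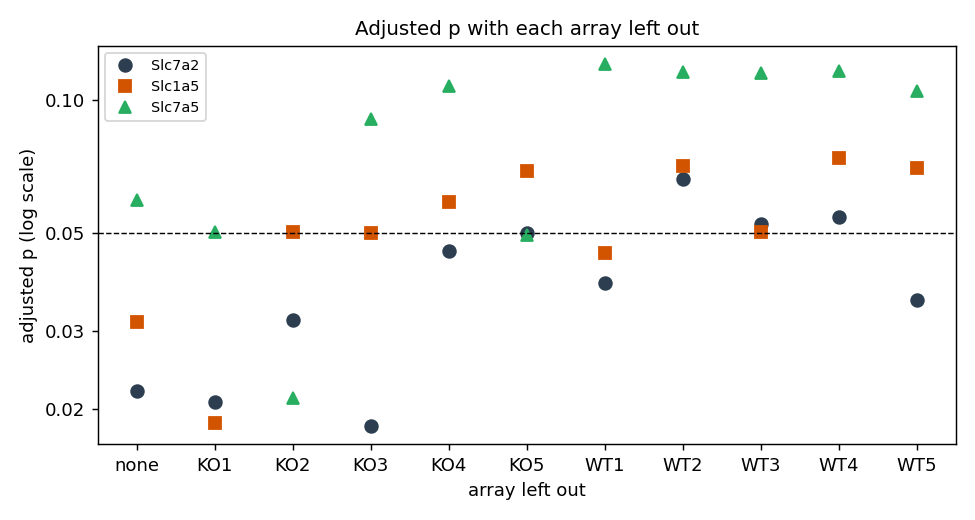
Limma adjusted p of Slc1a5, Slc7a2 and Slc7a5 with all 10 arrays and with each array left out in turn, KO arrays left of WT arrays, and the threshold of 0.05 as a line. Slc7a2 stays under the line without 6 of the 10 arrays, Slc1a5 without 2, and Slc7a5 falls under it without KO2 or KO5.

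Slc7a5 encodes LAT1, an exchanger of large neutral amino acids such as leucine that works with the heavy chain encoded by Slc3a2. Its level was -2.38, -1.20, -2.11, -2.02 and -2.57 in KO1 to KO5, against -2.94, -2.74, -2.92, -2.90 and -2.81 in WT1 to WT5 (probe on chromosome 8 at 120523247 to 120523306). The groups did not overlap, and KO2 stood above the other KO arrays. The mean was -2.06 ± 0.52 in KO and -2.86 ± 0.08 in WT (SD, n = 5 each). This gave a log2 difference of 0.80 ± 0.22, or 1.74-fold, with an exact permutation p of 0.0079 and a limma adjusted p of 0.059, which misses the threshold. Without KO2 the difference was 0.59 with a limma adjusted p of 0.021, and without KO5 the adjusted p was 0.0495. With any 1 of the other 8 arrays left out the gene did not pass, with limma adjusted p-values up to 0.121, reached without WT1. Within slide 2 the difference was 0.91.

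Slc7a7 encodes y+LAT1, which exports cationic amino acids in exchange for neutral ones and also pairs with the Slc3a2 product. Its level was 0.29, 1.79, 0.90, 0.79 and 0.59 in KO1 to KO5, against 0.33, -0.01, 0.07, 0.46 and -0.13 in WT1 to WT5 (chromosome 14, 49236554 to 49236613). KO2 was again the highest array, while KO1 lay within the WT range. Between the groups the log2 difference was 0.73 ± 0.25, with an exact permutation p of 0.024 and a limma adjusted p of 0.117, and within slide 2 it was 1.13. Slc7a7 therefore did not pass the test.

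**Figure D4:**
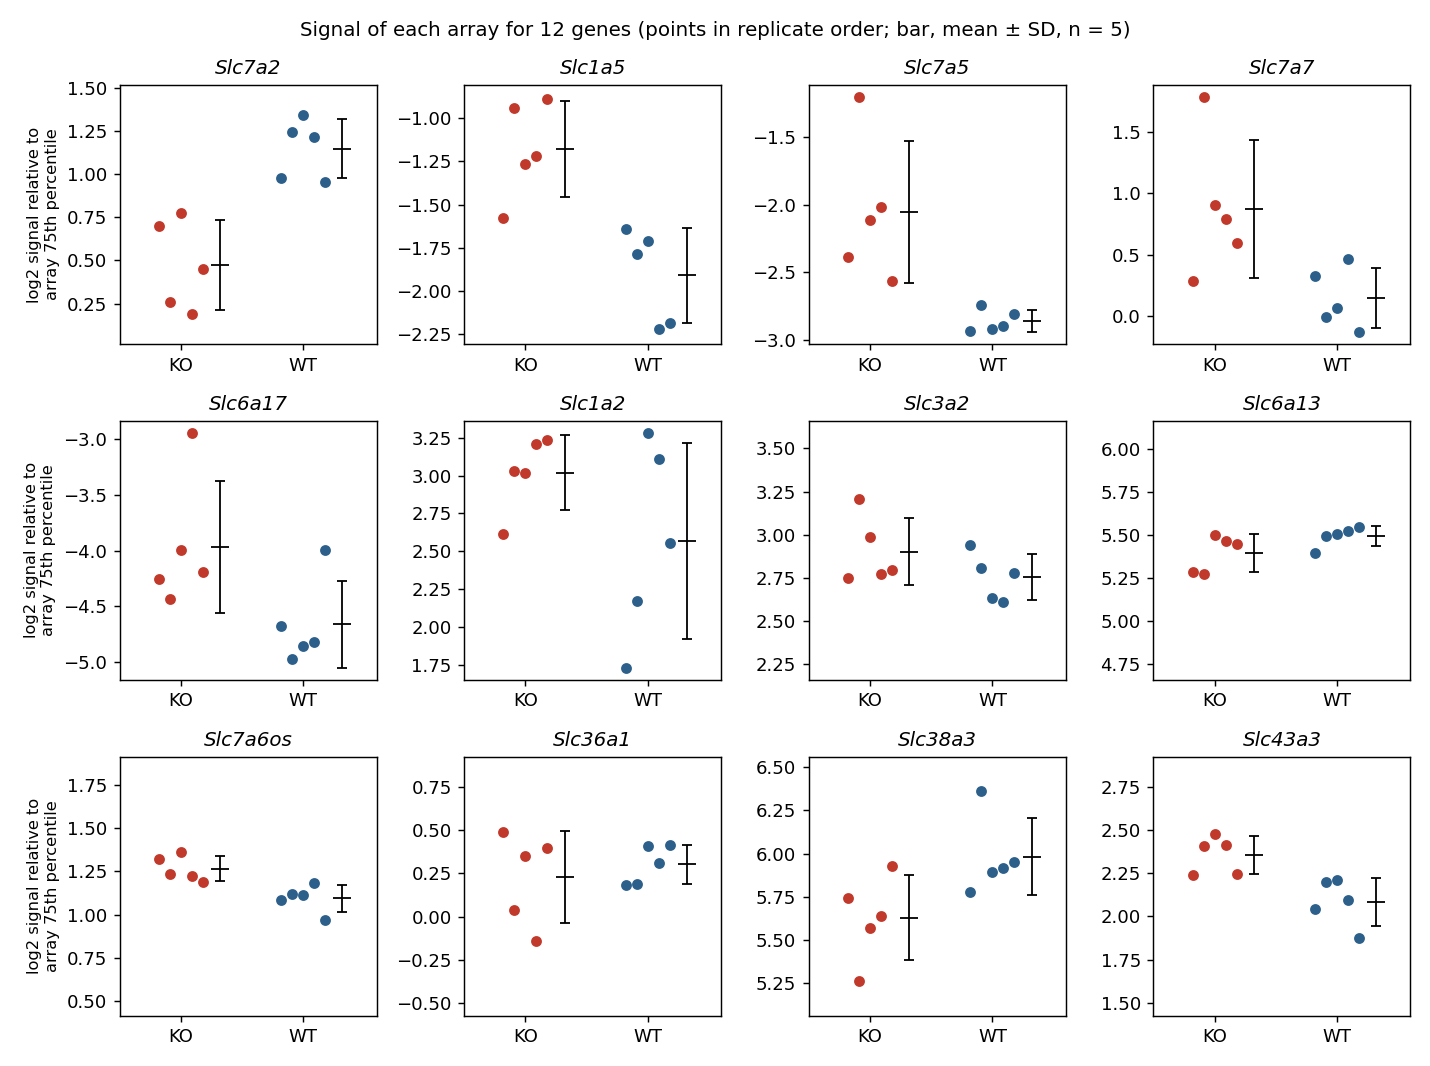
Level (log2 intensity minus the array's 75th percentile) of the 12 members given with every array, KO points left of WT points, with a line at the mean and bars of 1 SD. Slc7a2, Slc1a5, Slc7a5, Slc7a6os and Slc43a3 show no overlap between the groups, and in the other 7 panels the groups overlap.

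The other tested transporter genes of SLC7 did not pass the test. Slc7a8, which encodes LAT2, the second light chain for large neutral amino acids, ran from -0.83 to 0.47 in KO and from -0.64 to -0.11 in WT, with a log2 difference of 0.30 ± 0.21 (limma adjusted p = 0.418). Slc7a9 encodes the light chain of the transporter for cystine and dibasic amino acids and is best known from kidney and gut. It was detected on 4 KO arrays and 2 WT arrays, so it passed the detection filter only through KO, where it was higher. Its values are therefore a description. The difference was 0.85 ± 0.55 over all arrays and -1.59 within slide 2, since WT5 stood at -2.89 and the other WT arrays between -5.79 and -4.97. Slc7a15 differed by 0.43 ± 0.23 over all arrays and by -0.47 within slide 2, where WT5 was again its highest WT array at -2.90. Slc7a4 differed by -0.11 ± 0.41, and by 0.33 without KO2. The sign of these last genes thus turned with the arrays used.

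Slc7a6os, the 1 gene without a transporter product, differed little but evenly. It had levels of 1.32, 1.23, 1.36, 1.22 and 1.19 in KO1 to KO5, against 1.08, 1.12, 1.11, 1.19 and 0.97 in WT1 to WT5 (chromosome 8, 104799772 to 104799831). The lowest KO array lay at the height of the highest WT array without overlapping it. A log2 difference of 0.17 ± 0.07 resulted, with an exact permutation p of 0.0079 and a limma adjusted p of 0.154.

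Of the 2 SLC3 heavy chain genes, 0 passed the limma test and 0 had an unadjusted p under 0.05. Slc3a2 encodes the heavy chain known as CD98, the partner of LAT1, LAT2 and y+LAT1. Its level was 2.75, 3.21, 2.99, 2.77 and 2.80 in KO1 to KO5, against 2.94, 2.81, 2.63, 2.61 and 2.78 in WT1 to WT5 (chromosome 19, 8387861 to 8387920). The groups overlapped, with a log2 difference of 0.15 ± 0.11, an exact permutation p of 0.238 and a limma adjusted p of 0.431. Its second probe gave 0.20 ± 0.13. Slc3a1, which encodes rBAT, the partner of the Slc7a9 product, ran from 1.68 to 3.56 in KO and from 1.66 to 2.61 in WT. Its difference of 0.28 ± 0.32 came to 0.01 without KO2.

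In SLC1, the family of glutamate and small neutral amino acid transporters, Slc1a5 was the member that changed. Slc1a2 encodes GLT-1, the main glutamate transporter of astrocytes, which is also found in pericentral hepatocytes. Its level was 2.61, 3.03, 3.02, 3.21 and 3.23 in KO1 to KO5, against 1.73, 2.17, 3.28, 3.11 and 2.55 in WT1 to WT5 (chromosome 2, 102628336 to 102628395). The WT arrays were spread widely and overlapped the KO arrays, with a log2 difference of 0.45 ± 0.28, an exact permutation p of 0.222 and a limma adjusted p of 0.361. Without WT1, its lowest array, the difference was 0.24. Slc1a4, which encodes ASCT1, the closest relative of ASCT2, had a negative difference of -0.42 ± 0.19 (limma adjusted p = 0.215), and its second probe gave -0.47 ± 0.26. It ran from -1.96 to -1.01 in KO and from -1.10 to -0.69 in WT. Slc1a6, a glutamate transporter gene best known from cerebellum, differed by 0.26 ± 0.17.

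The SLC38 genes encode sodium-coupled carriers of glutamine and small neutral amino acids, and 0 of the 3 tested passed the limma test, 2 of them with an unadjusted p under 0.05. Slc38a3 encodes SNAT3, which moves glutamine into and out of hepatocytes. Its level was 5.75, 5.26, 5.57, 5.64 and 5.93 in KO1 to KO5, against 5.78, 6.36, 5.89, 5.92 and 5.95 in WT1 to WT5 (chromosome 9, 107380941 to 107381000). All KO arrays but KO5 lay below the lowest WT array, WT1. The log2 difference was -0.35 ± 0.14, with an exact permutation p of 0.040 and a limma adjusted p of 0.170. Slc38a2, which encodes SNAT2, a carrier known to be raised when amino acids are short, differed by 0.36 ± 0.14 (limma adjusted p = 0.158), running from 3.12 to 3.88 in KO and from 2.94 to 3.38 in WT. Its 4 kept probes gave positive differences between 0.05 and 0.36. Slc38a1, which encodes SNAT1, differed by 0.19 ± 0.21, with KO2 at -1.14 and the other KO arrays between -2.47 and -1.96.

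In SLC6, 0 of 8 tested genes passed the limma test, and 2 had an unadjusted p under 0.05, Slc6a8 and, only through its detection in KO, Slc6a17. Slc6a17 encodes a carrier of neutral amino acids known from synaptic vesicles. Its level was -4.26, -4.43, -4.00, -2.95 and -4.20 in KO1 to KO5, against -4.67, -4.97, -4.85, -4.82 and -3.99 in WT1 to WT5, and it was detected on 4 KO arrays and 3 WT arrays. KO4 and WT5 were the highest arrays of their groups. The log2 difference was 0.70 ± 0.29, and within slide 2 it was -0.24. Slc6a17 passed the detection filter through the KO arrays, where it was higher. Its values are therefore a description, and its place in the count of unadjusted p-values is not read as a difference. Slc6a8, the creatine transporter gene, averaged -0.35 ± 0.35 in KO and -0.76 ± 0.16 in WT (SD, n = 5 each), with a difference of 0.41 ± 0.16 (limma adjusted p = 0.164).

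Slc6a13 encodes a GABA and taurine transporter that is found in liver as well as at the brain surface. Its level was 5.28, 5.27, 5.50, 5.47 and 5.45 in KO1 to KO5, against 5.40, 5.50, 5.50, 5.52 and 5.55 in WT1 to WT5 (chromosome 6, 121362880 to 121362939). The arrays of both groups lay close together and overlapped. The log2 difference was -0.10 ± 0.07, with an exact permutation p of 0.135 and a limma adjusted p of 0.428, and its sign turned with no scaling between arrays. A second probe, which shares part of the same stretch, gave -0.15 ± 0.06. The neighbouring gene Slc6a12, whose product carries betaine and GABA, differed by 0.02 ± 0.08.

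The remaining SLC6 genes showed small differences beside their spread. Slc6a6, the taurine transporter gene, differed by -0.12 ± 0.09 over levels from 3.89 to 4.30 in KO and from 4.18 to 4.34 in WT. Slc6a9, which encodes a glycine transporter, differed by -0.06 ± 0.18, with KO2 at 4.84 and the other KO arrays between 3.85 and 4.06, and its sign also turned with no scaling between arrays. Slc6a14, which encodes a transporter of neutral and cationic amino acids, differed by 0.17 ± 0.20. Slc6a16, which has no known substrate, differed by -0.23 ± 0.35.

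The 3 SLC43 genes were all tested, 0 passed the limma test and 1 had an unadjusted p under 0.05. Slc43a3, whose product is known as a carrier of purine bases rather than amino acids, had levels of 2.24, 2.41, 2.48, 2.41 and 2.24 in KO1 to KO5, against 2.04, 2.20, 2.21, 2.10 and 1.87 in WT1 to WT5 (chromosome 2, 84801546 to 84801605). The groups did not overlap, with KO1 and KO5 just above WT2 and WT3. The log2 difference was 0.27 ± 0.09, with an exact permutation p of 0.0079 and a limma adjusted p of 0.095. Slc43a1, which encodes LAT3, a carrier of branched-chain amino acids, differed by 0.01 ± 0.34, with KO2 lowest at -2.37. Slc43a2, which encodes LAT4, differed by -0.14 ± 0.10 on the chosen probe and by 0.16 ± 0.18 on a second probe.

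The SLC36 genes encode carriers of the family known as proton-coupled, found on the plasma membrane and on lysosomes. Of the 2 tested, 0 passed the limma test and 0 had an unadjusted p under 0.05. Slc36a1, which encodes PAT1, had levels of 0.49, 0.04, 0.35, -0.14 and 0.40 in KO1 to KO5, against 0.19, 0.19, 0.41, 0.31 and 0.42 in WT1 to WT5 (chromosome 11, 55192788 to 55192847). The groups overlapped fully, and the log2 difference of -0.07 ± 0.13 (limma adjusted p = 0.761, exact permutation p = 0.595) turned its sign with no scaling between arrays. Slc36a4, which encodes PAT4, gave 2 answers from 2 probes that lie 5 bases apart on chromosome 9. Their sequences, 60 bases each, are shown because they let the same stretch of transcript be read side by side.
Upstream probe, chr9:15579570-15579629, plus strand: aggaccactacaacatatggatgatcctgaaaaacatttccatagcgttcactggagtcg
Downstream probe, chr9:15579635-15579694, plus strand: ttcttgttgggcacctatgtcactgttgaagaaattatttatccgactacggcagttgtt
On the downstream probe all 10 arrays lay between -3.74 and -3.47, and the log2 difference was 0.00 ± 0.07. On the upstream probe KO1 to KO5 stood at -4.20, -3.83, -4.38, -4.11 and -4.55, against -3.94, -4.18, -1.32, -4.70 and -1.49 in WT1 to WT5. WT3 and WT5 stood far above the other 8 arrays there, which gave a difference of -1.09 ± 0.64 (limma adjusted p = 0.344), and they did not stand apart on the downstream probe. Of the 9 members with several kept probes, 7 had the same sign on all of them, and Slc36a4 and Slc43a2 did not.

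**Figure D5:**
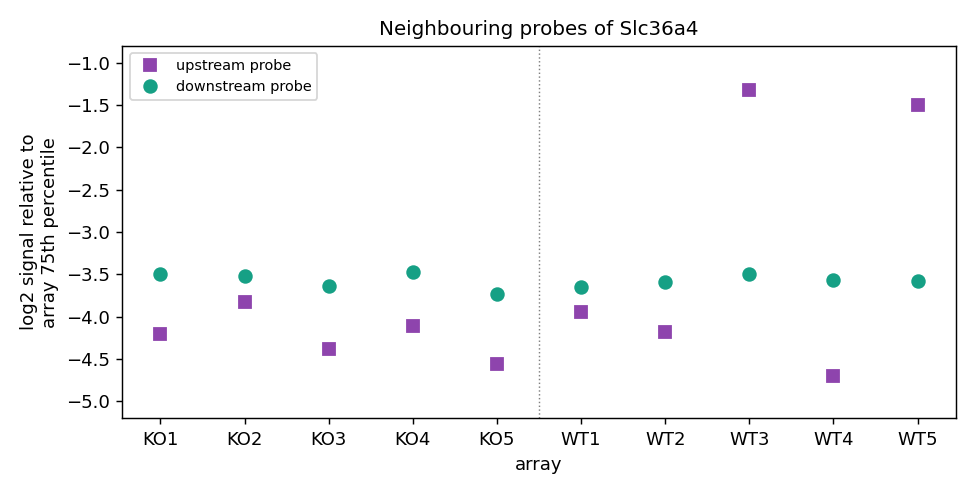
Level (log2 intensity minus the array's 75th percentile) of the upstream and the downstream Slc36a4 probe on each array, KO left of WT. The downstream probe is flat between -3.74 and -3.47, and WT3 and WT5 rise to -1.32 and -1.49 on the upstream probe.

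Single arrays stood apart in places. KO2 was the highest or lowest of the 10 arrays for 14 of the 30 tested members (46.7%), and for 6769 of the 15741 genes with a value on every array. WT5 was so for 9 of the 30 members and for 2419 of the same genes (15.4%). Without KO2, 1 member was higher, Slc7a5, and 1 was lower, Slc7a2, and without WT5, Slc7a15 was higher and Slc7a2 lower.

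Genes that sense amino acids or handle them after uptake were set beside the transporters. In the list of the amino acid response and ATF4 targets, 1 of 28 tested genes rose and 1 fell, with a median log2 difference of 0.09. An unadjusted p under 0.05 was reached by 9 of the 28 (23.7% of all genes). Their levels summed on the linear scale, which follows the probes with the highest levels, came to 440.9 on KO2. The sum lay between 274.7 and 298.3 on the other KO arrays and between 254.8 and 323.4 on the WT arrays. Without KO2 the median difference was -0.02, with 2 genes higher. Asns, which encodes asparagine synthetase, was at 3.63, 5.16, 4.32, 4.48 and 5.02 in KO1 to KO5, against -1.79, 0.07, 0.75, -1.94 and -0.65 in WT1 to WT5. Every KO array lay far above every WT array, and the difference was 5.23 ± 0.53 (limma adjusted p = 0.0012). Gdf15, which encodes a stress-induced hormone, fell by 1.49 on the log2 scale (standard error 0.32, limma adjusted p = 0.028). Atf4 itself differed by 0.26 ± 0.08 and did not pass (limma adjusted p = 0.096).

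Of 31 tested genes of amino acid sensing by mTORC1, the kinase complex that answers to amino acid supply, 1 rose and 0 fell, with a median of -0.06. The gene that rose was Lamtor3, a subunit of the lysosomal anchor of the complex, at 0.30 ± 0.06 (limma adjusted p = 0.027). Of 18 other amino acid and peptide transporters and partners, 0 passed the limma test in either direction, 5 had an unadjusted p under 0.05, and the median was -0.00. Slc7a6os, described above, is among the 18 and among the 5. The smallest p among them was that of Slc15a4, which encodes a lysosomal carrier of histidine and peptides, at -0.51 ± 0.16 (limma adjusted p = 0.089). Of 23 genes of glutamine, glutamate and ammonia handling, 2 fell, with a median of -0.10. Gpt2, an alanine transaminase gene, fell by 0.78 (standard error 0.15, limma adjusted p = 0.017), and Rhbg, an ammonia transporter gene of pericentral hepatocytes, fell by 0.88 (0.20, adjusted p = 0.040, without WT5, whose spot was an outlier).

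Whole liver holds several cell types, and in bulk RNA a change in the number of cells of a type and a change in RNA per cell cannot be told apart. Levels of a marker list were summed on the linear scale, in units of the array's 75th percentile. The sum over 13 tested hepatocyte markers ran from 2404 to 2913 in KO and from 2474 to 2932 in WT, and 0 of them passed the limma test (2 at an unadjusted p under 0.05). Of 15 markers of sinusoidal endothelial cells, 3 rose (Flt4, Dnase1l3 and Fcgr2b, by 0.58, 0.58 and 0.74) and 0 fell, where 2.44% of all genes rose. Their median difference was 0.32, with 14 positive and 9 at an unadjusted p under 0.05 (23.7% of all genes). The sum of the 15 ran from 66.4 to 107.5 in KO and from 47.8 to 65.7 in WT, without overlap. Of 14 macrophage markers, 2 rose (Fcgr3 by 0.81 and Cd163 by 0.91), with sums from 66.3 to 164.2 in KO and from 71.7 to 148.3 in WT. Their median difference was 0.35, with 3 at an unadjusted p under 0.05. Of 15 stellate cell and fibroblast markers, 1 rose (Bgn by 0.34), with sums from 114.8 to 142.3 in KO and from 102.5 to 127.8 in WT. The median there was 0.13, with 5 at an unadjusted p under 0.05. The part of these cells in the values of Slc1a5, Slc7a5, Slc7a7 and Slc43a3 was not tested.

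Among markers of hepatocyte zones, pericentral genes had 1 of 13 higher (Avpr1a, a vasopressin receptor gene) and 1 lower (Rhbg), with a median of 0.06. Of 13 periportal genes, 0 were higher and 1 was lower, Uroc1, a gene of histidine breakdown, at -0.69 ± 0.15 (limma adjusted p = 0.031), with a median of -0.20. Their sum was 610.1 on KO2, between 1039 and 1211 on the other KO arrays, and between 1038 and 1182 on the WT arrays. Markers of bile duct cells (7 tested), lymphocytes (7), neutrophils (3) and erythroid cells (4) had 0 genes past the limma test (0, 0, 0 and 2 at an unadjusted p under 0.05), with medians of 0.16, 0.02, 0.50 and -0.36. Their part in the transporter values was not tested. Of the 13 genes of these lists named here as changed, all but Asns and Avpr1a lost their call when a single array was left out, each for 1 to 9 of the 10 arrays.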

How the data were processed

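Scanner files of 10 one-colour arrays were used. Per the file headers, the deposited intensity values came from Agilent Feature Extraction 9.5.1.1, which subtracted the background, and no scaling from array to array had been applied. They are the same in the series table.

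Intensities were taken to log2 with no pseudocount, each array's 75th percentile was subtracted, outlier spots were set to missing, and spots of 1 probe were averaged. The detection filter of 4 arrays in either group of 5 kept 23266 of the 41174 probes that are not controls. The brightest probe stood for its gene, which left 15810 genes, with 75 missing gene values that the fit left out. Names came from the files, updated for other genes through a RefSeq table (22951 probes by accession, 6659 by symbol, 3109 by synonym, 8455 unmatched). The test was limma's moderated fit (lmFit, eBayes, version 3.58.1, R 4.3.3) on genotype alone. A run on simulated data had equal spread in both groups and no slide effect. It therefore could not show how the fit behaves with the unequal spread and the slides of these arrays. Precision is limited by the number of arrays.

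Given with every array were members that changed, those with an unadjusted p under 0.05 and a difference of at least 0.5, and the brightest member of each family. Some genes are not reported here. Members and lists were chosen with earlier results of these data known.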

Additional observations from a re-analysis of the deposited data

Results flagged for a closer look

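In 60 tests of 5 arrays each (30 genes in 2 groups), 4 arrays lay farther from the rest than Dixon's critical value of 0.71 allows, and chance flags about 1 in 20 groups. Slc7a4 stood at -5.00 on KO2 and between -2.95 and -2.60 on the other KO arrays. Slc6a9 stood at 4.84 on KO2, against 3.85 to 4.06 on the other KO arrays. Slc1a4 stood at -0.69 on WT1 and between -1.10 and -1.05 on the other WT arrays. Slc7a9 stood at -2.89 on WT5, against -5.79 to -4.97 on the other WT arrays. The gap to the nearest array made up 0.853, 0.787, 0.880 and 0.718 of the range of the 5 arrays, in this order.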

How the results depend on the processing

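Each result was recomputed under 23 alternatives, except that Slc1a6, Slc6a14, Slc6a17, Slc7a4, Slc7a9 and Slc7a15 had 22, since they were not detected on all 10 arrays. Slc7a2 kept its direction in all of them and its call in 14, Slc1a5 kept its direction in all and its call in 10, and Slc7a5 was called in 3. These counts are not of independent checks. The series table holds the same values, and each of these genes has 1 probe, detected on all 10 arrays. Their differences therefore could not move with the series table, the mean over probes or the filter for all 10 arrays. Slide as a fixed block and slide 2 alone also gave the same difference. Of the 30 members, 16 kept their sign throughout. The count of higher members, 1 as reported, was 0 with median scaling, with no filter on dim probes, with slide as a fixed block, within slide 2 and with the replicate block, and 2 with slide as a random block (Slc1a5 and Slc7a5). The count of lower members, 1 as reported, was 0 with no scaling, no filter, slide as a fixed block, within slide 2 and with the replicate block. Leaving out each array in turn gave 0 to 1 higher and 0 to 1 lower members. The count of all genes that changed, 935 as reported, was 469 with no scaling, 247 with no filter, 35 with slide as a fixed block, 1451 with slide as a random block (consensus correlation -0.09), 2 within slide 2, where the lone WT array was taken to vary like the KO arrays, and 166 with the replicate block. It ran from 297 without WT2 to 1191 without KO1. Higher and lower genes numbered 385 and 550 as reported, 313 and 156 with no scaling, which moved the median of all genes to 0.12, and 153 and 558 with median scaling. The cause of these shifts was not tested. Same-numbered KO and WT arrays did not deviate together (correlations of -0.03, -0.21, -0.12, 0.04 and -0.05), which does not settle whether the numbers pair samples. With the replicate block the limma adjusted p was 0.086 for Slc7a2, 0.124 for Slc1a5 and 0.108 for Slc7a5. Signal over background limits the 25 untested genes.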
